A study of Mus musculus with 6 samples.

Results

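Mitochondrial ribosomal protein genes were taken from a bulk-seq data set of mouse spinal cord as the genes whose name begins with Mrpl or Mrps followed by a digit. The 2 names containing -ps, the mark of a pseudogene, were dropped, and a gene had to be above 0 FPKM in at least 1 library. This gave 77 of the 25576 genes of the series, of which 48 are named for the large subunit (Mrpl) and 29 for the small subunit (Mrps). All 77 were above 0 FPKM in every one of the 6 libraries and all passed the filter on low values.

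The study compared the spinal cords of mice with spinal muscular atrophy (SMA) with those of control mice. In SMA too little SMN protein is made, and motor neurons degenerate. There were 3 SMA libraries (mSmn-/-, hSMN22tg/0) and 3 control libraries (mSmn+/-, hSMN22tg/0), all from FVB mice at postnatal day 4. Both groups carry the human SMN2 transgene, and the control mice lack 1 of the mouse Smn alleles, so the control group is heterozygous and not wild type. The methods give bulk-seq as triplicates with n = 1 per group, which leaves unclear how many animals gave the 3 libraries of a group. The p-values below therefore measure the spread between libraries, whether technical or between animals.

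The mitochondrial ribosome, or mitoribosome, reads the mRNAs that are encoded by mitochondrial DNA, which specify core subunits of the respiratory chain and of ATP synthase. Its RNA is made inside the organelle, but all of its proteins are encoded in the nucleus, made in the cytosol and imported. The small subunit binds the mRNA and decodes it, and the large subunit joins the amino acids and passes the new chain towards the inner membrane.

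Values of a gene are given in the order of replicates 1 to 3. Levels are given as FPKM, fragments scaled by exon length and by the mapped fragments of the library, so that they are already per length and can be set side by side between genes. Fold changes are SMA against control on the log2(FPKM + 1) scale, from limma, which fits each gene by a linear model and shares information on variance between genes. It was run on the 17088 genes whose mean reached 0.5 FPKM. The smallest p that exact permutation can give (two-sided) is 0.1 for 3 libraries against 3, and 0.1 also for 3 against 2. FPKM holds no read counts, so depth in reads is unknown. Relative to SMA replicate 1, the depth estimated from the lowest FPKM values was 1.16, 1.08 and 1.03 in control replicates 1 to 3.

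Smn1, the gene knocked out in the SMA mice, was listed at 10.4, 8.64 and 11.9 FPKM in the control and at 8.48, 9.30 and 11.1 FPKM in the SMA replicates. These values overlapped between the groups (p = 0.6 by exact permutation, two-sided), so at the level of whole genes Smn1 gives no check of the genotype labels. Every direction below rests on these labels. The log2 fold change of Smn1 was -0.09, and -0.20 without control replicate 2. By staining of protein, the paper reports less CD31 (Pecam1) and less Col3a1 in SMA. Its single-cell data also gave lower Col3a1 RNA in a fibroblast subtype. Here, in RNA of whole tissue, Pecam1 had a log2 fold change of -0.54, with all SMA libraries under all controls, and of -0.42 without control replicate 2. That of Col3a1 was -1.59, and -1.43 without control replicate 2, with overlap between the groups in both. The tissue label was checked by markers of neurons and glia. Stmn2, a neuronal protein that binds tubulin, lay between 235 and 468 FPKM over the 6 libraries. Gfap, an intermediate filament protein of astrocytes, lay between 117 and 167 FPKM, and Mbp, a protein of myelin, between 375 and 695 FPKM. All 11 neuron markers were found, and they summed to 2181, 1618 and 2473 FPKM in the control and 2376, 2471 and 2531 FPKM in the SMA replicates.

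Control replicate 2 stood apart from the other 5 libraries. Across all genes tested, which are not independent replicates, its Pearson correlation with them was 0.836 to 0.849, while every other pair of libraries reached at least 0.983. All 15 hepatocyte markers, all 9 erythroid markers found and all 7 neutrophil markers had their highest value there. The hepatocyte list, led by Alb, the gene of serum albumin, summed to 30772 FPKM in control replicate 2 and to between 49.4 and 109.6 FPKM in the other 5 libraries. The erythroid list, led by the beta-globin gene Hbb-bs, summed to 18855 FPKM against 1115 to 1862 FPKM. The neutrophil list, led by S100a8, summed to 418 FPKM against 5.36 to 11.6 FPKM. None of the hepatocyte or erythroid markers was at 0 in any library, and 1 neutrophil marker was at 0 in control replicate 3 and 1 in SMA replicate 1. The comparison of SMA with control was therefore also made without control replicate 2. In bulk tissue, fewer cells of a type and less RNA per cell cannot be told apart.

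The members formed a band of moderate, similar levels. Their mean FPKM over the 6 libraries ran from 4.24 (Mrpl47) to 34.8 (Mrpl33), an 8.21-fold range, with 65 of the 77 between 5 and 20 FPKM, 9 above and 3 below. The median of the member means was 11 FPKM against 7.53 FPKM for all genes tested, of which 36.2% lay under the lowest member and 11.4% above the highest. Level showed little relation to gene length. Pearson's r between log2 mean FPKM and log2 exon length was -0.061 across the 77 genes, which share their libraries and are not independent.

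**Figure D1:**
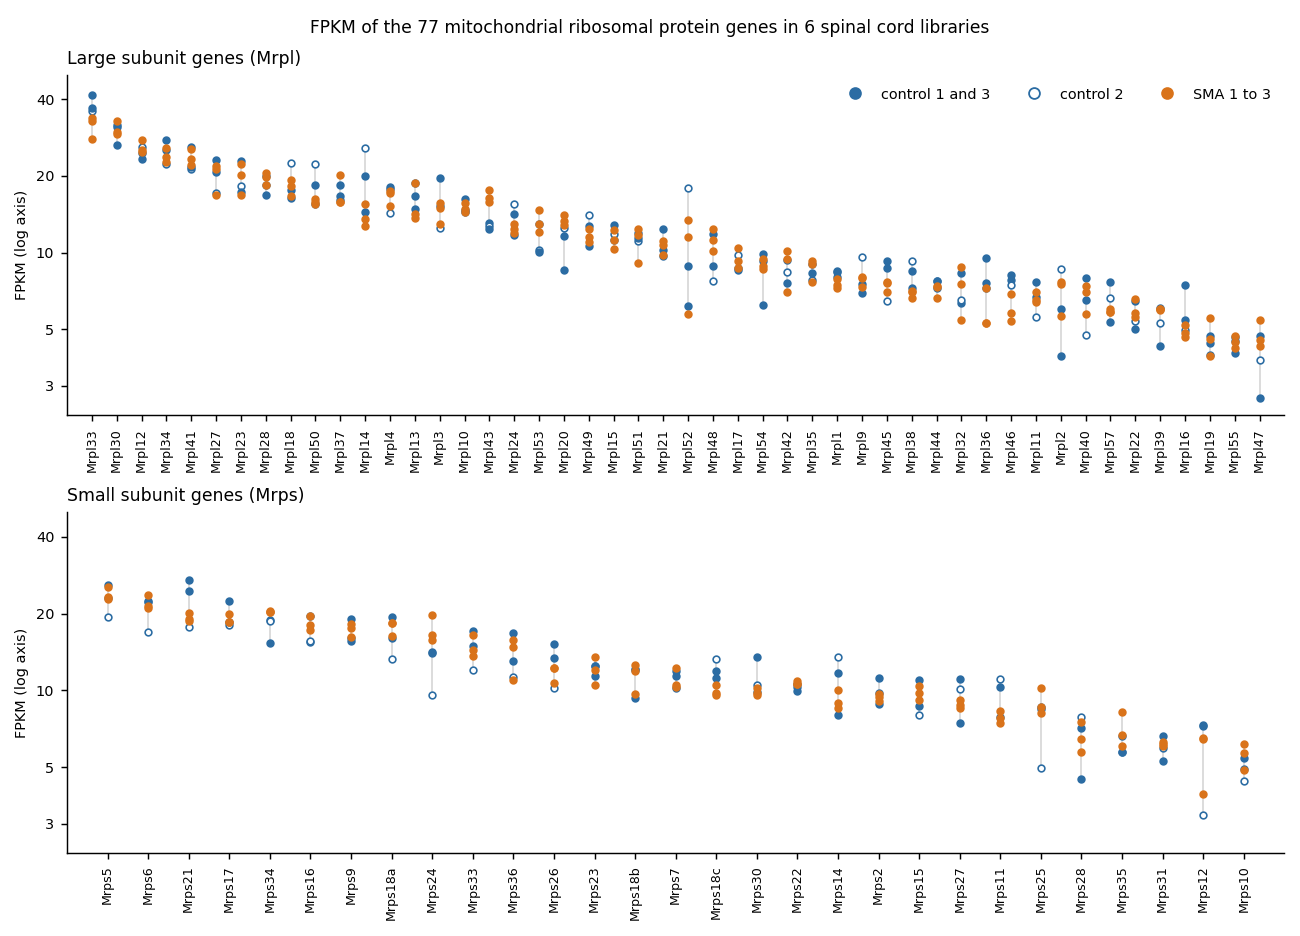
FPKM of each member in each library on a log axis, with large subunit genes above and small subunit genes below, sorted by mean. Filled blue points are control replicates 1 and 3, open blue points control replicate 2 and orange points the SMA replicates, and grey lines join the lowest and highest library. The blue and orange points are mixed for most genes, and Mrpl33 leads and Mrpl47 ends the large subunit.

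Among the large subunit genes, the 5 highest were Mrpl33, Mrpl30, Mrpl12, Mrpl34 and Mrpl41, with means of 34.8, 30.2, 25.3, 24.5 and 23.3 FPKM. Mrpl33 and Mrpl34 encode small proteins with bacterial counterparts, while Mrpl41 has none in bacteria. Mrpl12, whose protein forms part of the stalk that recruits translation factors and has also been found bound to the mitochondrial RNA polymerase, was at 23.3, 25.99 and 24.6 FPKM in the control and 24.9, 25.3 and 27.6 FPKM in the SMA replicates. These groups overlapped (log2 fold change 0.07, standard error 0.09, and 0.11 without control replicate 2). The 3 lowest were Mrpl19 at 4.52 FPKM, Mrpl55 at 4.42 FPKM and Mrpl47 at 4.24 FPKM.

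Among the small subunit genes, the 5 highest were Mrps5 (23.3 FPKM), Mrps6 (21.3), Mrps21 (21.2), Mrps17 (19.3) and Mrps34 (19.0). The first 4 have bacterial counterparts, and Mrps34 is found in mitochondria and not in bacteria. The 3 lowest were Mrps31 at 6.06 FPKM, Mrps12 at 5.78 FPKM and Mrps10 at 5.24 FPKM. Mrps12 encodes the protein of the decoding centre whose bacterial form is known for mutations that give resistance to streptomycin.

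Between libraries the members varied less than all genes with control replicate 2, and about as much without it. The median coefficient of variation of a member over the 6 libraries was 12.8%, against 17.1% for all genes tested, and without control replicate 2 it was 10.8% against 11.5%. The members and all genes were not matched for level. The FPKM of all 77 members summed to 1005, 943.8 and 955.2 in the control and to 957.4, 959.4 and 956.8 in the SMA replicates. The sums of the SMA libraries lay within the range of the controls.

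As a group, the members did not move to 1 side between SMA and control. Of the 77, 37 had a negative and 40 a positive log2 fold change, and their median was 0.01 against 0.04 for all genes tested. Without control replicate 2, 45 were negative and 32 positive, and the median was -0.03 against 0.00. The direction of this median depended on the scaling: with median ratio scaling of all 6 libraries it was -0.04, against 0.00 for all genes. Most of the log2 fold changes were small, with 59 of 77 (76.6%) within 0.2 of 0, against 59.8% of all genes tested. Without control replicate 2 the share of the members was again 76.6% and that of all genes was 76.1%, so the contrast with all genes rested on that library.

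At an unadjusted p under 0.05 in limma, 3 members were lower in SMA, Mrpl46, Mrps18c and Mrpl36, and 2 were higher, Mrpl43 and Mrps24. That is 3.9% and 2.6% of the members, beside 2.39% of all tested genes on the lower and 3.4% on the higher side. No member had an adjusted p under 0.05, and neither did any of the 17088 genes (0%). No member met the thresholds of the study's methods, an unadjusted p under 0.05 with a fold over 2, which 29 genes (0.17%) met. Without control replicate 2, 7 members were lower (9.09%, with 5.2% of all 16574 genes) and 4 were higher (5.19%, with 5.27%). Of all genes in that comparison, 2 had an adjusted p under 0.05 in limma (0.0121%) and 23 passed the study's thresholds (0.139%), none of them a member. Mrpl36 and Mrpl46 were lower, and Mrpl43 and Mrps24 higher, both with and without that library.

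The other libraries moved these limma counts at an unadjusted p under 0.05 as well, and with them the shares of all genes. Without control replicate 1 there were 1 lower (3.35% of all genes) and 5 higher members (6.03%), and without control replicate 3 there were 5 (4.16%) and 2 (6.07%). Without SMA replicate 1 there were 1 lower (1.79%) and 1 higher member (1.39%). Without SMA replicate 2 there were 0 (0.83%) and 1 (1.49%), and without SMA replicate 3 there were 1 (0.731%) and 1 (1.25%).

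Counted by overlap alone, 5 members had every SMA library under every control library and 5 had every SMA library above. Each is 6.49% of the members, where 6.67% of all genes tested had the SMA libraries all under and 10.3% had them all above the controls. Chosen after their values were seen, the members on the lower side were Mrpl1, Mrpl33, Mrpl38, Mrpl46 and Mrps18c, and those on the upper side Mrpl20, Mrpl43, Mrps22, Mrps24 and Mrps34. Without control replicate 2 the counts were 13 on the lower side (16.9%, with 13.9% of all genes) and 7 on the upper side (9.09%, with 14.2%). The 8 added below were Mrpl4, Mrpl16, Mrpl36, Mrpl44, Mrpl45, Mrps12, Mrps21 and Mrps26, and those added above were Mrpl12 and Mrpl17. Some of the gaps with all 6 libraries were narrow. Mrps22 was at 9.96 to 10.6 FPKM in the control libraries and at 10.6 to 10.9 FPKM in the SMA libraries (log2 fold change 0.05, standard error 0.09, and also 0.05 without control replicate 2).

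**Figure D2:**
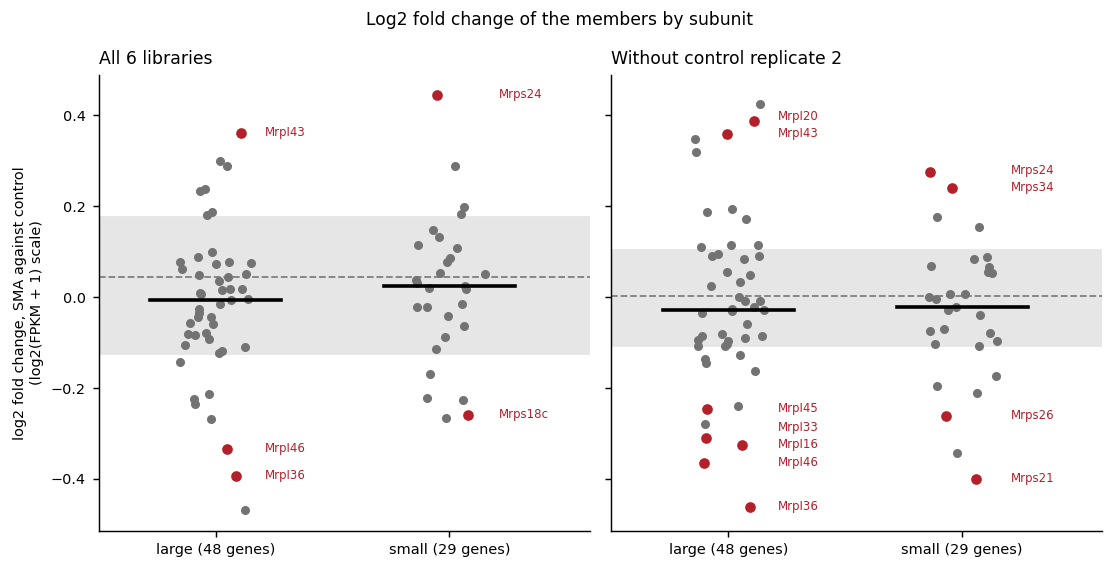
Log2 fold change of each member, SMA against control, by subunit, in the comparison of all 6 libraries on the left and without control replicate 2 on the right. Black bars are subunit medians, red points are members with an unadjusted p under 0.05, the dashed line is the median of all genes tested and the grey band holds the middle 50% of them. The medians lie between -0.03 and 0.03 in both panels, and more members are red on the right, 11 against 5.

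Mrpl43 gave the smallest p of the members with all 6 libraries. It encodes a large subunit protein with no bacterial counterpart and lies on chr19:45004829-45006442 on the minus strand (GENCODE M21, GRCm38). It was at 13.1, 12.7 and 12.4 FPKM in the control and at 15.9, 16.3 and 17.7 FPKM in the SMA replicates. All 3 SMA libraries were above all 3 controls, and control replicate 2 sat with its group. The log2 fold change was 0.36 (standard error 0.09, unadjusted p = 0.00549 and adjusted p = 0.683 from limma). Without control replicate 2 it was also 0.36 (limma adjusted p = 0.291), and over all 12 alternatives it ranged from 0.31 to 0.39, with a largest unadjusted p of 0.0334.

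The start of Mrpl43 faces away from that of Twnk (listed in the files under its older name Peo1), which encodes the helicase of mitochondrial DNA replication, at a distance of 116 bases. The 80 bases before the start of Mrpl43, on chr19:45006443-45006522, minus strand, are shown because this was the member with the smallest p. They are from RefSeq (GRCm38.p6), and capitals mark the motif CCGGAAGT, a sequence like that bound by GABPA, a factor known for promoters of nuclear genes of mitochondria.
Mrpl43: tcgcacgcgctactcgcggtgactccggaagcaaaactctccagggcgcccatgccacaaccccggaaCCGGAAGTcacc
Peo1 itself was at 2.86, 3.57 and 2.43 FPKM in the control and 2.58, 2.84 and 2.33 FPKM in the SMA replicates. Its groups overlapped, and its log2 fold change was -0.14 (standard error 0.15), or -0.03 without control replicate 2, opposite in sign to that of Mrpl43.

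Mrps24, the other member with a higher level in SMA, encodes a small subunit protein with a bacterial counterpart. It was at 14.1, 9.61 and 14.1 FPKM in the control and at 16.5, 19.8 and 15.8 FPKM in the SMA replicates. All SMA libraries were above all controls, and control replicate 2 was the lowest of the 6. The log2 fold change was 0.44 (standard error 0.17, limma adjusted p = 0.683), the highest of all members, and 0.27 (standard error 0.10) without control replicate 2. Its unadjusted p was above 0.05 with the replicate block and when any of the SMA libraries was left out, with log2 fold changes from 0.35 to 0.51.

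Of the lower members, Mrpl46 gave the smallest p with all 6 libraries. Its protein is part of the central protuberance, the head of the large subunit that touches the small subunit. It was at 7.81, 7.45 and 8.18 FPKM in the control and at 6.87, 5.78 and 5.39 FPKM in the SMA replicates. All SMA libraries were under all controls. The log2 fold change was -0.33 (standard error 0.11, unadjusted p = 0.0240 and adjusted p = 0.683 from limma) and -0.36 (standard error 0.12) without control replicate 2. The unadjusted p lay above 0.05 with the replicate block (0.0565) and without control replicate 1 (0.0514), control replicate 3 (0.0639), SMA replicate 2 (0.0827) or SMA replicate 3 (0.0983), and the log2 fold change stayed between -0.42 and -0.27.

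Mrpl46 shares its promoter region with another member. Its start faces away from that of Mrps11, a small subunit gene, and in RefSeq (GRCm38.p6) only 41 bases lie between them, on chr7:78783090-78783130. They are shown on the plus strand, that of Mrps11, because they lie between 1 gene of each subunit. They hold none of the 3 motifs searched for, while the longer window of Mrps11 holds the YY1-like motif AAGATGGCG. In GENCODE M21 the closest starts are 30 bases apart and 12 of the 41 bases lie in exons. The outermost start of Mrpl46, which is on the minus strand, is at position 78783531, past the start of Mrps11 at 78783119.
Mrpl46-Mrps11: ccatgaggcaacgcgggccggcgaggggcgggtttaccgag
Mrps11 was at 10.3, 11.1 and 7.83 FPKM in the control and at 7.82, 7.46 and 8.29 FPKM in the SMA replicates. Control replicates 1 and 2 were high and control replicate 3 lay among the SMA libraries. Its log2 fold change was -0.27 (standard error 0.14), negative like that of Mrpl46, and -0.17 without control replicate 2. Leaving out control replicate 3 took it to -0.40 with an unadjusted p of 0.0104.

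Mrps18c was at 11.9, 13.3 and 11.2 FPKM in the control and at 10.5, 9.57 and 9.75 FPKM in the SMA replicates. All SMA libraries were under all controls, with control replicate 2 the highest of the 6. The log2 fold change was -0.26 (standard error 0.10, unadjusted p = 0.0397 and adjusted p = 0.683 from limma), and without control replicate 2 it was -0.20 with an unadjusted p of 0.0540. Leaving out control replicate 1 or any of the SMA libraries, or using the replicate block, also took the unadjusted p above 0.05, to between 0.0634 and 0.129.

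Mammals have 3 genes of the Mrps18 family, whose proteins take different places in the mitoribosome: that of Mrps18c sits where the single bacterial protein does, that of Mrps18b elsewhere in the small subunit and that of Mrps18a in the large subunit, despite its name. Mrps18a had a mean of 17 FPKM, Mrps18b of 11.3 FPKM and Mrps18c of 11.03 FPKM. Mrps18a was at 16.1, 13.3 and 19.4 FPKM in the control and at 16.3, 18.5 and 18.5 FPKM in the SMA replicates, so that its groups overlapped. Mrps18b was at 9.31, 12.2 and 11.97 FPKM in the control and at 9.64, 12.6 and 11.9 FPKM in the SMA replicates, and its groups overlapped too. The log2 fold changes of these paralogs were 0.13 and 0.03, and 0.01 and 0.09 without control replicate 2. That of Mrps18b was negative in 4 of the 12 alternatives, with a lowest value of -0.09 without control replicate 1, while that of Mrps18c was negative in all 12.

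Mrpl36 was at 7.602, 7.24 and 9.49 FPKM in the control and at 5.29, 5.31 and 7.28 FPKM in the SMA replicates. The groups overlapped, since SMA replicate 3 lay just above control replicate 2. It encodes 1 of the smallest large subunit proteins, and its start lies beside that of Ndufs6, which encodes a subunit of respiratory complex I. The log2 fold change of Mrpl36 was -0.39 (standard error 0.16, unadjusted p = 0.0436 and adjusted p = 0.683 from limma) and -0.46 without control replicate 2. It kept an unadjusted p under 0.05 in 6 of the 12 alternatives. In the other 6, no filter on low FPKM, quantile normalization and leaving out control replicate 1, control replicate 3, SMA replicate 1 or SMA replicate 2, its p lay between 0.0519 and 0.139. Ndufs6 had a log2 fold change of -0.09 (standard error 0.18), and of -0.04 without control replicate 2.

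**Figure D3:**
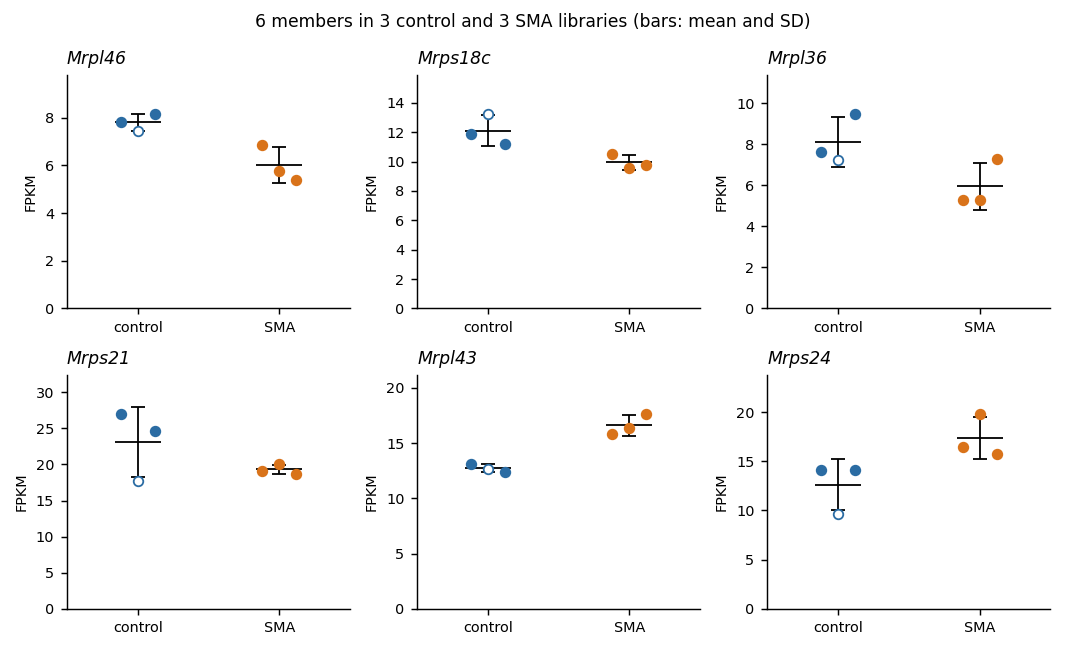
FPKM of 6 members in the 3 control (blue) and 3 SMA (orange) libraries, with control replicate 2 as an open point and bars for the mean and SD of 3 libraries. The SMA points lie under all controls for Mrpl46 and Mrps18c and above all controls for Mrpl43 and Mrps24, while for Mrps21 control replicate 2, at 17.7 FPKM, lies under the SMA libraries.

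Further members came under 0.05 without control replicate 2. Mrps21, the third highest small subunit gene, was at 27.0 and 24.6 FPKM in control replicates 1 and 3, at 17.7 FPKM in control replicate 2 and at 19.1, 20.1 and 18.7 FPKM in the SMA replicates. Its log2 fold change was -0.23 (standard error 0.16) with all 6 libraries and -0.40 (standard error 0.07, unadjusted p = 0.00071 and adjusted p = 0.264 from limma) without control replicate 2. Leaving out control replicate 1 instead gave -0.11. Mrps21 reached an unadjusted p under 0.05 in none of the other 11 alternatives.

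Mrpl33 was at 41.7, 35.9 and 36.9 FPKM in the control and at 33.9, 27.98 and 32.8 FPKM in the SMA replicates. All SMA libraries of this most abundant member were under all controls. It is 1 of 5 genes listed with the same span, and how fragments were divided there is not stated. Its log2 fold change was -0.27 (standard error 0.11, limma adjusted p = 0.683) and -0.31 without control replicate 2, and it was negative in all 12 alternatives. In 4 of these its unadjusted p was under 0.05: no filter on low FPKM (0.0410), median ratio scaling (0.0139), quantile normalization (0.0186) and without control replicate 2 (0.0133).

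Mrps26, Mrpl45 and Mrpl16, the last named after its values were seen, were also lower at an unadjusted p under 0.05 without control replicate 2. Mrps26 was at 15.2, 10.2 and 13.3 FPKM in the control and at 12.2, 12.3 and 10.7 FPKM in the SMA replicates. Mrpl45, whose protein sits at the exit of the tunnel and anchors the mitoribosome to the inner membrane, was at 9.31, 6.45 and 8.67 FPKM in the control and at 7.59, 6.98 and 7.69 FPKM in the SMA replicates. In both genes control replicate 2 was the lowest of the 6 libraries. Mrpl16 was at 5.45, 4.97 and 7.45 FPKM in the control and at 4.84, 5.20 and 4.65 FPKM in the SMA replicates, with control replicate 3 high. Its control replicate 1 lay just above the highest SMA library, and its control replicate 2 lay among the SMA libraries. With all 6 libraries the groups of these genes overlapped and their log2 fold changes were -0.11, -0.11 and -0.22, and without control replicate 2 they were -0.26, -0.25 and -0.33. Leaving out control replicate 1 instead gave 0.00 for Mrps26 and -0.01 for Mrpl45, so both values depended on single control libraries. Leaving out control replicate 3 gave -0.08 and -0.06, leaving out SMA replicate 2 gave -0.07 for Mrpl45, and leaving out SMA replicate 3 gave -0.055 for Mrps26.

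On the higher side, Mrpl20 and Mrps34 joined Mrpl43 and Mrps24 without control replicate 2. Mrpl20, which has a bacterial counterpart, was at 11.7, 12.5 and 8.54 FPKM in the control and at 13.3, 12.8 and 14.04 FPKM in the SMA replicates, with log2 fold changes of 0.29 (standard error 0.15) and, without control replicate 2, 0.39 (standard error 0.13). Mrps34 was at 18.9, 18.7 and 15.4 FPKM in the control and at 20.2, 20.4 and 20.4 FPKM in the SMA replicates, with log2 fold changes of 0.20 (standard error 0.11) and 0.24 (standard error 0.09). In both genes all SMA libraries were above all controls, and control replicate 3 was the lowest library. Leaving it out gave 0.14 for Mrpl20 and 0.11 for Mrps34. Each had an unadjusted p under 0.05 in only 1 of the 12 alternatives, that without control replicate 2.

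The subunits were compared by their names first. The median log2 fold change was -0.01 for the 48 large subunit genes and 0.03 for the 29 small subunit genes, a difference of -0.03, and without control replicate 2 the medians were -0.03 and -0.02, a difference of -0.01. The SD of this difference between libraries of a group was 0.0439, and the difference was smaller than that in both comparisons. This SD is the spread of single libraries and not the standard error of the difference, so it serves as a scale and not as a test. The same SD is used when a library is left out. The difference was past that SD without control replicate 1 (-0.072), SMA replicate 1 (-0.063) or control replicate 3 (-0.046). Without SMA replicate 2 (-0.037) or SMA replicate 3 (-0.028) it was not. An unadjusted p under 0.05 was found for 3 large subunit genes, 2 of them lower in SMA, and for 2 small subunit genes, 1 of them lower, beside 2.39% lower and 3.4% higher among all genes. These were 7 large subunit genes, 5 of them lower, and 4 small subunit genes, 2 of them lower, without control replicate 2, beside 5.2% and 5.27%.

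In each library, the large subunit genes summed to 619.8, 611.2 and 587.3 FPKM in the control and to 599.2, 584.7 and 593.3 FPKM in the SMA replicates. The small subunit genes summed to 385.4, 332.6 and 367.9 FPKM in the control and to 358.3, 374.7 and 363.6 FPKM in the SMA replicates. The ratio of the sums was 1.61, 1.84 and 1.596 in the control and 1.67, 1.56 and 1.63 in the SMA replicates. The highest ratio was that of control replicate 2, where the small subunit had its lowest sum, and the other 5 libraries lay between 1.56 and 1.67.

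The medians were less even between the groups than the sums. The median small subunit gene was at 11.7, 11.1 and 11.9 FPKM in the control and at 10.9, 10.6 and 10.5 FPKM in the SMA replicates, so that all SMA libraries were under all controls. The median large subunit gene was at 10.7, 10.01 and 9.67 FPKM in the control and at 11.1, 10.4 and 10.7 FPKM in the SMA replicates, where the groups overlapped. The ratio of the medians, large over small, was 0.917, 0.899 and 0.815 in the control and 1.02, 0.984 and 1.02 in the SMA replicates. With subunits taken by structure it was 1.00, 0.969 and 0.854 against 1.04, 0.999 and 1.02, and the groups overlapped. A median of this kind rests on the gene in the middle of each library's order, and no test was made of it.

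**Figure D4:**
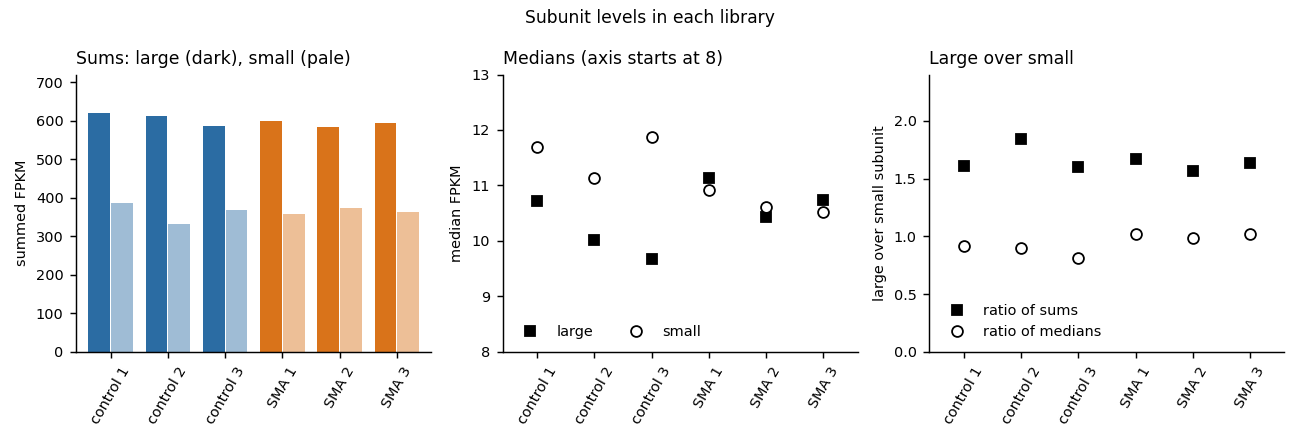
Summed FPKM (left), median FPKM (middle, axis from 8) and the ratio of large over small subunit (right) in each library, with subunits by gene name. The ratio of sums is highest in control replicate 2, at 1.84, and the ratio of medians is under 0.92 in the 3 controls and above 0.98 in the 3 SMA libraries.

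Gene names and structure differ for 3 members. Mrps18a and Mrps30 are named for the small subunit, but their proteins lie in the large one, and Mrps36 is now known as a subunit of the 2-oxoglutarate dehydrogenase complex and is no ribosomal protein. Mrps30 was at 13.6, 10.5 and 9.85 FPKM in the control and at 9.80, 10.2 and 9.58 FPKM in the SMA replicates, with 1 high control and overlap between the groups (log2 fold change -0.17, and -0.21 without control replicate 2). Without control replicate 1, the high library, it was -0.04. Mrps36 was at 13.03, 11.3 and 16.8 FPKM in the control and at 11.03, 14.8 and 15.7 FPKM in the SMA replicates and had a log2 fold change of 0.02 (standard error 0.18), and of -0.10 without control replicate 2. With the 50 large and 26 small subunit genes by structure, the difference of the medians was -0.03 with all 6 libraries and -0.02 without control replicate 2.

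Split by origin, the 46 structural members with a bacterial counterpart and the 30 without one had medians near 0. Among large subunit genes the median log2 fold change was -0.01 for the 30 with a bacterial counterpart and -0.02 for the 20 found in mitochondria only. Among small subunit genes it was 0.00 for 16 and 0.04 for 10. These medians were -0.03, -0.02, -0.05 and 0.05 without control replicate 2. By level, the large subunit genes with a bacterial counterpart had a median between 12.48 and 12.95 FPKM over the 6 libraries, and those without one between 8.13 and 9.52 FPKM. The libraries measure the same genes, so this range is not the spread between genes. The genes themselves overlapped widely. Their means ran from 4.24 (Mrpl47) to 34.8 FPKM (Mrpl33) with a counterpart and from 4.42 (Mrpl55) to 23.3 FPKM (Mrpl41) without one. For the small subunit genes the medians lay between 9.95 and 12.2 FPKM and between 10.3 and 11.3 FPKM, so that even the medians of the 2 classes overlapped. Here Mrps18a was put with the genes that have a bacterial counterpart and Mrps18b was not, although both are related to the same bacterial protein. With Mrps18a sorted like Mrps18b, a choice made after seeing the data, the large subunit medians were -0.01 for 29 and 0.01 for 21 genes, and -0.03 and -0.01 without control replicate 2. Their median levels were then between 11.66 and 12.9 FPKM and between 8.85 and 9.80 FPKM.

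Parts of the large subunit were small groups. The 3 stalk genes (Mrpl10, Mrpl11 and Mrpl12) had a median log2 fold change of 0.01. The 5 genes of the central protuberance (Mrpl18, Mrpl38, Mrpl40, Mrpl46 and Mrpl48) had one of -0.04, with single values from -0.33 to 0.24. The 4 genes of the exit tunnel (Mrpl22, Mrpl23, Mrpl24 and Mrpl45) had one of -0.05. The medians were -0.03, -0.10 and -0.04 without control replicate 2. Within each of these parts, members lay on both sides of 0 in both comparisons.

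Control replicate 2 differed from the rest in single members more than in the group as a whole. Against the median of the other 5 libraries, its members had a median log2 ratio of -0.083, and the median size of the log2 ratio, sign ignored, was 0.202. For all genes that size was 0.414 in control replicate 2. In the other 5 libraries it lay between 0.0974 and 0.176 for the members and between 0.122 and 0.166 for all genes. In control replicate 2, 10 of the 77 members (13%) lay more than 0.5 from the other libraries on the log2 scale, against 42% of all genes. The other libraries had between 1 and 4 such members (1.3% to 5.19%), against 9.93% to 14.6% of all genes. Here too, members and all genes were not matched for level.

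**Figure D5:**
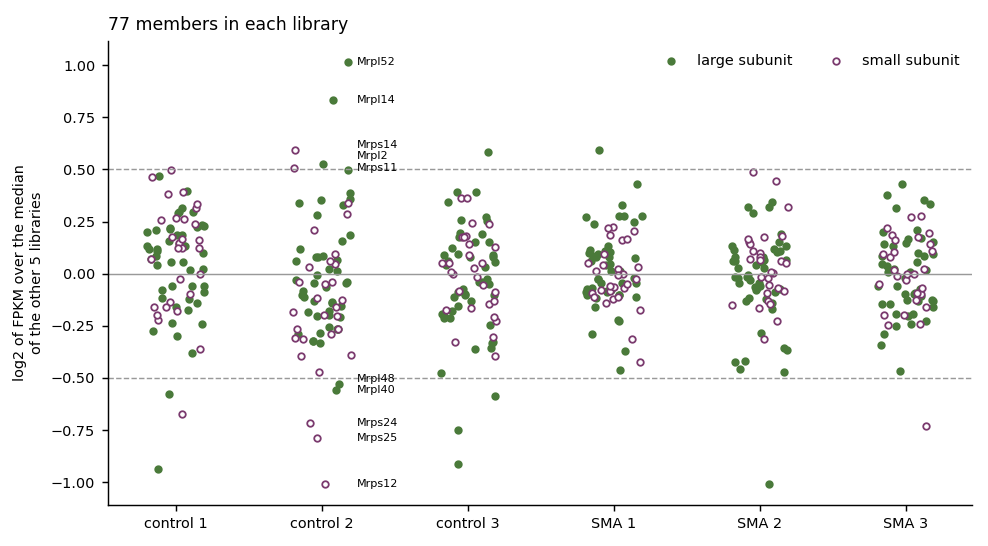
Log2 ratio of each member's FPKM in a library to its median in the other 5 libraries, with large subunit genes as filled and small subunit genes as open points. Dashed lines mark 0.5 in either direction, and the 10 members past them in control replicate 2 are named, from Mrps12 at -1.01 to Mrpl52 at 1.02.

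The 5 members highest in control replicate 2 were Mrpl52, Mrpl14, Mrps14, Mrpl2 and Mrps11, at 2.02, 1.78, 1.51, 1.44 and 1.42 times the median of the other libraries. Mrpl52 was the most variable of these: it was at 8.89, 18.0 and 6.15 FPKM in the control and at 13.4, 5.75 and 11.6 FPKM in the SMA replicates, a 3.13-fold range with high and low libraries in both groups. Its log2 fold change was -0.04 (standard error 0.42) and, without control replicate 2, 0.35 (standard error 0.31). Leaving out control replicate 3 gave -0.357, SMA replicate 1 -0.260 and SMA replicate 2 0.288, and the value was negative in 10 of the 12 alternatives. Mrpl14 was at 20, 25.7 and 14.5 FPKM in the control and at 15.5, 12.7 and 13.5 FPKM in the SMA replicates. It had the lowest log2 fold change of all members, -0.47 (standard error 0.20, limma adjusted p = 0.683), which was -0.28 (standard error 0.14) without control replicate 2. Its unadjusted p was under 0.05 only without control replicate 3, where the log2 fold change was -0.67.

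The 5 members lowest in control replicate 2 were Mrps12, Mrps25, Mrps24, Mrpl40 and Mrpl48, at 0.498, 0.579, 0.609, 0.679 and 0.693 times the median of the others. Mrps12 was at 7.24, 3.25 and 7.30 FPKM in the control and at 6.52, 6.46 and 3.93 FPKM in the SMA replicates, so that 1 library of each group was low. Its log2 fold change was -0.02 (standard error 0.31), and -0.34 (standard error 0.19) without control replicate 2. Leaving out control replicate 1 gave 0.135, control replicate 3 0.140 and SMA replicate 3 0.178, while the value was negative in 8 of the 12 alternatives. Mrps25, a small subunit protein gene without a bacterial counterpart, was at 8.44, 4.97 and 8.596 FPKM in the control and at 8.58, 8.17 and 10.2 FPKM in the SMA replicates, and its log2 fold change went from 0.29 to 0.07 without control replicate 2. The part of the hepatocyte, erythroid and neutrophil transcripts in these values was not tested.

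Other marker lists varied too. The 4 endothelial markers, led by Cldn5, a protein of tight junctions, summed to 40.9, 40.4 and 39.1 FPKM in the control and to 31.5, 24.8 and 24.6 FPKM in the SMA replicates, and 2 of them, Cldn5 and Pecam1, were lower at an unadjusted p under 0.05 both with and without control replicate 2, beside 2.39% and 5.2% of all genes. The 4 fibroblast markers, led by the collagen gene Col1a2, summed to 158.3, 162.1 and 141.8 FPKM in the control and to 172.7, 73.7 and 33.4 FPKM in the SMA replicates, where SMA replicate 1 was the highest of the 6 libraries. The 7 markers of the oligodendrocyte lineage, led by Mbp, summed to 764.6, 747.9 and 1139 FPKM in the control and to 610.6, 750.2 and 778.6 FPKM in the SMA replicates, and 0 of them were lower in limma at an unadjusted p under 0.05 with all 6 libraries and 2 without control replicate 2. The 6 skeletal muscle markers, led by Actc1, summed to between 3.15 and 10.3 FPKM over the 6 libraries. None of these markers was at 0 in any library. Their part in the members' values was not tested.

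The members lay on 17 chromosomes, with 10 on chromosome 11 and 8 on chromosome 17. A head-to-head arrangement, in which the start of another protein-coding gene on the other strand lies at most 1000 bases away or overlaps by at most 200, was found for 29 of the 77 members (37.7%) and for 1863 of the 14363 protein-coding genes tested (13%). The neighbours included Ndufs6, Ndufb5, Peo1 and Sars2, which act in mitochondria, and Fau, Tcp1 and Psma2, which act in the cytosol. They were named after the list had been seen.

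Of the 29 neighbours 28 were tested, and 2 of these had an unadjusted p under 0.05 in limma with all 6 libraries. These were Hira, the neighbour of Mrpl40, with a log2 fold change of 0.25 (0.19 without control replicate 2), and Mrpl46 as the neighbour of Mrps11, which is itself counted among the members above. Of all genes tested 2.39% were lower and 3.4% higher. The count was also 2 without control replicate 2. In that comparison the shares among all genes rose to 5.2% on the lower and 5.27% on the higher side. A member and its neighbour had log2 fold changes of the same sign in 12 of the 28 cases, in which Mrpl46 and Mrps11 enter 2 times as a pair, and in 15 without control replicate 2. Pearson's r between them was 0.047 and 0.053 across these genes, which share their libraries and are not independent. The 29 members with such a neighbour had a median log2 fold change of -0.02 and the 48 without one of 0.02, and without control replicate 2 these were -0.03 and 0.00.

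Short motifs were sought on both strands of the RefSeq promoter windows, which run from 250 bases before to 50 after each start and were found for 68 members. The letters were GCGCATGCG, like the site of NRF1, CCGGAAGT, like the site of GABPA, and AAGATGGCG, like the site of YY1, all factors known for nuclear genes of mitochondria. A window can hold more than 1 of them. Shares are of genes, since a gene can have more than 1 window. The NRF1-like motif was found for 7 of the 68 members (10.3%), for 3.88% of protein-coding genes tested and for 1.95% of all genes with a window. For the GABPA-like motif the shares were 17.6%, 8.09% and 4.31%, and for the YY1-like motif 11.8%, 3.24% and 1.64%. At least 1 of the 3 was found in 26 of the 68 members (38.2%), with 18 of 42 large (42.9%) and 8 of 26 small subunit genes (30.8%), against 14.3% of protein-coding genes tested and 7.48% of all. A match is a run of letters and was not tested for binding.

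A window of each subunit shows where such a motif lies, given as the 80 bases before the start, from RefSeq (GRCm38.p6) with the motif in capitals. Mrpl22, whose protein lines the exit tunnel, is shown for the NRF1-like motif (chr11:58171584-58171663, plus strand), and Mrps22, a small subunit gene that is mutated in a mitochondrial disease of infants, for the GABPA-like motif (chr9:98601680-98601759, minus strand). Both were chosen after the matches were seen.
Mrpl22: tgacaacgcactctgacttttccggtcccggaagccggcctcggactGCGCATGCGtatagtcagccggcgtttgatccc
Mrps22: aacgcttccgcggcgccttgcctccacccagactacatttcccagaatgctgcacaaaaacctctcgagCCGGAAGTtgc
Mrpl22 had a log2 fold change of 0.08 (standard error 0.12), and of 0.06 without control replicate 2. Neither it nor Mrps22 passed an unadjusted p of 0.05 in the comparison of SMA with control.

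Further genes of mitochondrial translation were listed beside the members. Of 6 further mitoribosomal proteins whose names lie outside the rule, led by Dap3, Ict1 and Ptcd3, none had an unadjusted p under 0.05, and their median log2 fold change was -0.02, or -0.05 without control replicate 2. Dap3, a GTP-binding protein of the small subunit, was at 18.8, 20.5 and 23.6 FPKM in the control and at 18.9, 19.7 and 20.8 FPKM in the SMA replicates. Of 22 assembly factors and rRNA-modifying enzymes none had an unadjusted p under 0.05 with all 6 libraries, beside 2.39% lower and 3.4% higher among all genes. Without control replicate 2 there were 1 lower and 1 higher, beside 5.2% and 5.27% of all genes. Their median was 0.04 and 0.01, and the most abundant was Dhx30, an RNA helicase, at 31.9, 25.3 and 33.2 FPKM in the control and 36.1, 34.2 and 36.1 FPKM in the SMA replicates. Of 18 translation factors none passed with all 6 libraries and 1 was higher without control replicate 2, where 5.27% of all genes were, and their median was 0.00 and -0.01. The most abundant were Lrpprc, which stabilises mitochondrial mRNAs, and Tufm, the elongation factor that carries the charged tRNA. Tufm was at 28.2, 28.9 and 25.3 FPKM in the control and at 27.3, 26.3 and 28.4 FPKM in the SMA replicates, with overlap between the groups.

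Other values were found for the RNAs made from mitochondrial DNA. Of the 13 mRNAs that the mitoribosome translates, 2 were higher in SMA at an unadjusted p under 0.05 in limma with all 6 libraries and 11 without control replicate 2, where 3.4% and 5.27% of all genes tested were higher, and none was lower in either. Their median log2 fold change was 0.33 and 0.56, against 0.01 and -0.03 for the members. These 13 genes share their libraries and are not independent. They summed to 10663, 13325 and 9263 FPKM in the control and to 11812, 11317 and 12098 FPKM in the SMA replicates. Control replicate 3 was the lowest, and it is 1 of the 2 controls left without control replicate 2. Counts with another library left out are not given for these genes. The 2 that passed with all 6 libraries were mt-Atp8 and mt-Nd4l, named after their values were seen. mt-Atp8, a subunit of ATP synthase, was at 71.6, 94.0 and 46.0 FPKM in the control and at 121.6, 138.2 and 149.4 FPKM in the SMA replicates (log2 fold change 1.00, standard error 0.25, and 1.23 without control replicate 2). All SMA libraries were above all controls.

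The most abundant of these mRNAs, mt-Co1, did not pass the test in either comparison. mt-Co1, the core subunit of cytochrome c oxidase, was at 4183, 5496 and 3920 FPKM in the control and at 4326, 4249 and 4455 FPKM in the SMA replicates, and control replicate 2 was the highest library (log2 fold change -0.05, and 0.10 without it). mt-Nd4, a subunit of complex I, was at 620.3, 776.7 and 425.9 FPKM in the control and at 785.8, 694.2 and 800.0 FPKM in the SMA replicates. The groups overlapped through control replicate 2, and the log2 fold change came to 0.36 (standard error 0.24) with it and 0.56 without it. No adjusted p of these genes was under 0.05 in limma.

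The rRNAs of the mitoribosome were measured in libraries from which ribosomal RNA had been removed. mt-Rnr2, the rRNA of the large subunit, was at 774.5, 942.6 and 607.9 FPKM in the control and at 1225, 1319 and 1467 FPKM in the SMA replicates. All SMA libraries were above all controls. Its log2 fold change came to 0.80 (standard error 0.21, limma adjusted p = 0.683) and, without control replicate 2, 0.96 (limma adjusted p = 0.153). mt-Rnr1, the rRNA of the small subunit, was at 7.91, 13.8 and 24.2 FPKM in the control and at 13.4, 24.7 and 16.04 FPKM in the SMA replicates, with overlap. What the removal left of each rRNA cannot be told apart from its level in the tissue.

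These values are mRNA levels in whole tissue, and neither the proteins nor assembled mitoribosomes were measured. Motor neurons are a small part of the spinal cord, and a difference confined to them could be missed. How many animals gave the 3 libraries of a group is unclear, so differences between animals and between libraries cannot be told apart. Libraries of a group could differ widely. Alb was at 44.6, 15894 and 30.7 FPKM in the control replicates, and Col3a1 at 53.2, 20.2 and 3.10 FPKM in the SMA replicates. Control replicate 2 differed from the other libraries, and removing it leaves 2 controls. FPKM depends on the other genes of a library and on how fragments were divided between genes in a shared span. The subunit places and origins of members come from general knowledge of the mitoribosome and were not tested here. A gene without an unadjusted p under 0.05 may still differ between the groups.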

How the data were processed

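Gene-level FPKM were computed by the authors for each library and deposited as 1 file per library. The reads came from strand-specific libraries depleted of ribosomal RNA. The submitters' processing notes name HISAT2, Cufflinks and mm10, and versions and the annotation release are not given in the sources used here. A gene absent from a file was set to 0. The files give 35 of the 77 members (45.5%) a span shared with another gene, as for 42.4% of all genes tested, and how fragments were divided there is not stated. Mrpl33, Mrpl46, Mrps18c, Mrps24 and Mrps34 have such a span, while Mrpl36 and Mrpl43 have one of their own.

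Groups and replicate numbers came from the labels. log2(FPKM + 1) was compared between 3 SMA and 3 control libraries with lmFit and eBayes (trend) of limma 3.58.1 in R 4.3.3, for genes whose mean reached 0.5 FPKM, with no covariate and Benjamini-Hochberg adjustment over all genes tested. The study's own test used read counts, which were not used here. The procedure was tested on simulated data. Single genes were also tested by exact permutation. Depth was compared from values under 0.15 FPKM.

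Positions are from GENCODE M21 and promoters from RefSeq (GRCm38.p6), matched by identifier and symbol; all 77 members were found in the first. Alternatives were a pseudocount of 0.1, no filter or a minimum mean of 1 FPKM, median ratio scaling, quantile normalization, the replicate number as a block, each library left out, and subunits by structure. Members with a span of their own, and Mrps18a sorted as found in mitochondria only, were added after seeing the data.

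Named members were, per subunit, the 5 highest and 3 lowest by mean FPKM, up to 6 per direction with an unadjusted p under 0.05 with all libraries or without control replicate 2, the 5 highest and 5 lowest by ratio in control replicate 2, and 6 of known place (Mrps18a, Mrps18b, Mrps18c, Mrps30, Mrps36 and Mrpl12), with up to 3 genes per list. Of the listed genes, Ahsp, Mrm2, Mrm3 and Mtrfr were not found by name. Lists of neuron, astrocyte, oligodendrocyte, microglia and skeletal muscle markers were summed too. Members and lists were chosen with earlier results of these data known. Python 3.11.15 with pandas 2.3.3 and numpy 2.4.6 was used for the summaries.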

Additional observations from a re-analysis of the deposited data

How the results depend on the processing

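The counts of members with an unadjusted p under 0.05 in limma, 3 lower and 2 higher, were small and moved with the libraries used. Leaving out 1 library at a time gave 0 to 7 lower and 1 to 5 higher members. A pseudocount of 0.1 and a minimum mean of 1 FPKM each gave 3 and 2. Among all genes, the pseudocount gave 468 lower and 581 higher of 17088, and the minimum mean gave 357 and 521 of 15417. No filter and quantile normalization gave the same member counts with Mrpl33 in place of Mrpl36, and median ratio scaling gave 4 and 2 members. Of all genes, 491 were lower and 882 higher of 25576 with no filter. Of 17088 genes, 337 were lower and 639 higher with quantile normalization, and 563 and 551 with median ratio scaling. Over the 42 members with a span of their own, a setting chosen after seeing the data, 1 was lower and 1 higher, as fewer genes are counted. With the replicate block there were 1 lower and 1 higher member, and 303 lower and 356 higher genes in all. The labels do not say whether same-numbered libraries are paired. Their deviations from the group means correlated at -0.037, 0.0161 and 0.0766 across genes. Control replicate 2 enters the control means, so a weak pairing could be missed.

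The median log2 fold change of the members moved from 0.010 to -0.041 with median ratio scaling, and that of the large subunit genes from -0.005 to -0.060, while that of all genes tested moved from 0.044 to -0.004. Leaving out 1 library gave -0.026 to 0.019 for all members, -0.028 to 0.005 for the large and -0.021 to 0.051 for the small subunit genes, and -0.072 to -0.007 for large minus small. The other settings moved these medians by less than the SD between libraries.

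For the 36 named members, 208 of 216 values under settings that keep all libraries, and 189 of 216 with 1 library left out, stayed on the same side of an unadjusted p of 0.05 and, where not past it, within 1 SD. None that passed it changed sign. No member reached an adjusted p under 0.05 under any of these settings. FPKM gives no depth in reads, so counting error is unknown.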
